A study of Mus musculus with 9 samples.

Results

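Primary articular chondrocytes from mice, the cells of joint cartilage, were sequenced for RNA, and 32 genes of the p53 pathway are described here. The genes were listed by name, as known targets and regulators of p53, when earlier results of these data were already known. All 32 were found among the 55450 genes listed, each 1 time. The CDK inhibitor gene Cdkn1a, the best known p53 target, is not counted among them. The cells were grown at 3% oxygen in 10% serum, and every group received hyaluronidase at 4 U/mL for 4 h. They then received 50 µg/mL bleomycin, a glycopeptide that breaks DNA, or PBS for 24 h. After washing, all were kept for 5 days with DMSO or with 20 µM ST045849, an inhibitor of O-GlcNAc transferase, with medium renewed every 48 h. The 3 groups were vehicle (PBS, then DMSO), bleomycin (then DMSO) and bleomycin followed by ST045849, with 3 libraries each. ST045849 without bleomycin was not analysed here. Whether libraries within a group represent separate animals or cultures is not stated, so p-values measure the spread between these libraries, which may be technical.

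The transcription factor p53, encoded by Trp53, is held at a low level by the ubiquitin ligase Mdm2 and kept inactive by its relative Mdm4. DNA breaks activate the kinases ATM, ATR and CHK2, which release p53 from both. The protein then switches on genes that stop the cell cycle, promote cell death, supply and repair DNA, or limit oxidative damage, together with Mdm2 and the phosphatase gene Ppm1d, which shut the response down again. Activity of p53 rests mostly on the stability and modification of the protein, and p53 is itself known to carry O-GlcNAc. In damaged chondrocytes the pathway is known as one of the routes to senescence.

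Values are deposited FPKM, fragments scaled by exon length and library size, and the depth behind them is unknown. Of each library's summed FPKM the 32 genes took 0.114 to 0.136% in vehicle, 0.187 to 0.251% in bleomycin and 0.203 to 0.249% in bleomycin plus ST045849 libraries. Every defining marker of chondrocytes (14 genes) was above 0 in all 9 libraries, and the 5 endothelial markers summed to at most 0.39 FPKM. Summed macrophage markers were higher in the treated groups, going from 3.05 to 5.82 FPKM in vehicle libraries to 11 to 12.6 with bleomycin and 11.9 to 18 with ST045849. Of these 11 markers 3 could be tested, Cd68, Cd14 and Lyz2, and all 3 rose with bleomycin, while every library listed Tyrobp, C1qb and C1qc at 0, and 4 to 7 of the 11 stood at 0 in each. Summed fibroblast or synovial markers (9 genes) were 3590 to 4550 FPKM in vehicle, 5460 to 7620 with bleomycin and 3240 to 6110 with ST045849. Of these Thy1 rose with bleomycin (2 ± 0.37, adjusted p = 0.0126) and with both agents (1.49 ± 0.37, adjusted p = 0.0311), and Dcn with bleomycin (1.21 ± 0.31, adjusted p = 0.0489). Summed chondrocyte markers were 26400 to 38400, 19800 to 29100 and 16600 to 23700 FPKM in the same order. None of the 14 was called with bleomycin. With both agents 4 fell, where 1.74% of all genes did, namely Acan, Matn3, Col11a1 and Col11a2 (-1.66, -1.8, -1.42 and -1.02). With each library's trend on exon length taken out, Acan fell with bleomycin (-1.19 ± 0.25, limma adjusted p = 0.0248). With both agents 5 then fell, Sox9 and Hapln1 among them, and Col11a2 was no longer called. The part of these cell types in the p53 values was not tested. In these bulk samples a change in the share of a cell type and a change in RNA per cell cannot be told apart.

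The promoters of several members carry the letters of the p53 binding motif. The p53 decamer has a core CNNG, whose middle bases are A or T, with 3 purines before and 3 pyrimidines after it. Its complement has the same form, so a search of 1 strand covers both. RefSeq promoter windows in GRCm38.p6, from 250 bases before to 50 bases after the start of transcription, were found for 25 of the 32 genes. An exact decamer lay in the window of 9 of these 25 genes, against 9.55% of 27025 genes in the table. A full site, here 2 decamers joined with a spacer of 0 or 1 base, both cores intact and at most 3 mismatches outside them, lay in 5 of 25, against 1.23% of all genes. In Bax, Aen and Trp53 the exact decamer is part of the full site. The sequences below show those letters in 7 of these genes, 5′ to 3′ on the gene's strand, with the cores in capitals. Mdm2 and the called members Aen and Ei24 were set to be shown. The others were added after the matches were seen.
Mdm2 (chr10:117710915-117710964, minus strand): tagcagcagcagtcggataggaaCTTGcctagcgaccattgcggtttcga
Aen (chr7:78895937-78895956, plus strand): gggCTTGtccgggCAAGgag
Ei24 (chr9:36797335-36797344, minus strand): gggCATGccc
Bax (chr7:45467059-45467119, minus strand): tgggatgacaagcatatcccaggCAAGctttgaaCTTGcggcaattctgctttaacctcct
Bbc3 (chr7:16309466-16309525, plus strand): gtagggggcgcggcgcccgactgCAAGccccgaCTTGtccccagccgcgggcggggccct
Trp53 (chr11:69580264-69580323, plus strand): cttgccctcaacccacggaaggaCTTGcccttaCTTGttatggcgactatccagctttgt
Ccng1 (chr11:40755442-40755491, minus strand): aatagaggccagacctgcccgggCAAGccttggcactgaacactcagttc

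Positions are counted from the start of transcription, with bases before it negative. The 2 decamers of Bax are split by 1 extra base and begin at -201, those of Bbc3 at -97 and those of Trp53 at -75. In Aen the match begins at 10, inside an exon, and in Ei24 at -10, in an exon of GENCODE vM21. The decamers of Mdm2 and Ccng1 begin at -186 and -185. The fifth gene with a full site was Tigar, and Polk, Ppm1d and Sesn1 held an exact decamer. These 4 are not printed. A match is a description of letters and not a measured binding site. Among the 5 genes that rose with bleomycin, given next, Btg2, Psrc1, Eda2r and Phlda3 had a window with neither motif, and Perp had no window. Sites outside the windows, or with longer spacers, were not searched, so these genes may hold sites elsewhere.

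Bleomycin raised 5 of the 30 members that could be tested, and none fell. These were Perp, Psrc1, Eda2r, Phlda3 and Btg2, listed here under cell death or growth arrest, with rises of 0.91 to 1.8 log2 units. Over all 12441 tested genes 4.2% rose and 0.675% fell. A total of 27 of the 30 lay higher with bleomycin, against 62% of all genes, and their median change was 0.62 against 0.1. In 15 members the 3 bleomycin libraries lay apart from the 3 vehicle libraries, against 28% of all tested genes. All changes are differences in log2(FPKM + 1), which understate the change of genes with low values, with the standard error of limma's fit and n = 3 per group. Pmaip1 and Ano3 stayed under the filter of 1 FPKM in 3 libraries. The count of 5 fell to 3 when any bleomycin library, vehicle library 2 or vehicle library 3 was left out. It rose to 10 and 8 without ST045849 library 1 or 2, which enter this comparison only through the shared estimate of spread. Over all genes the 607 called fell to between 184 and 262, and rose to 829 and 782, in the same fits.

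**Figure D1:**
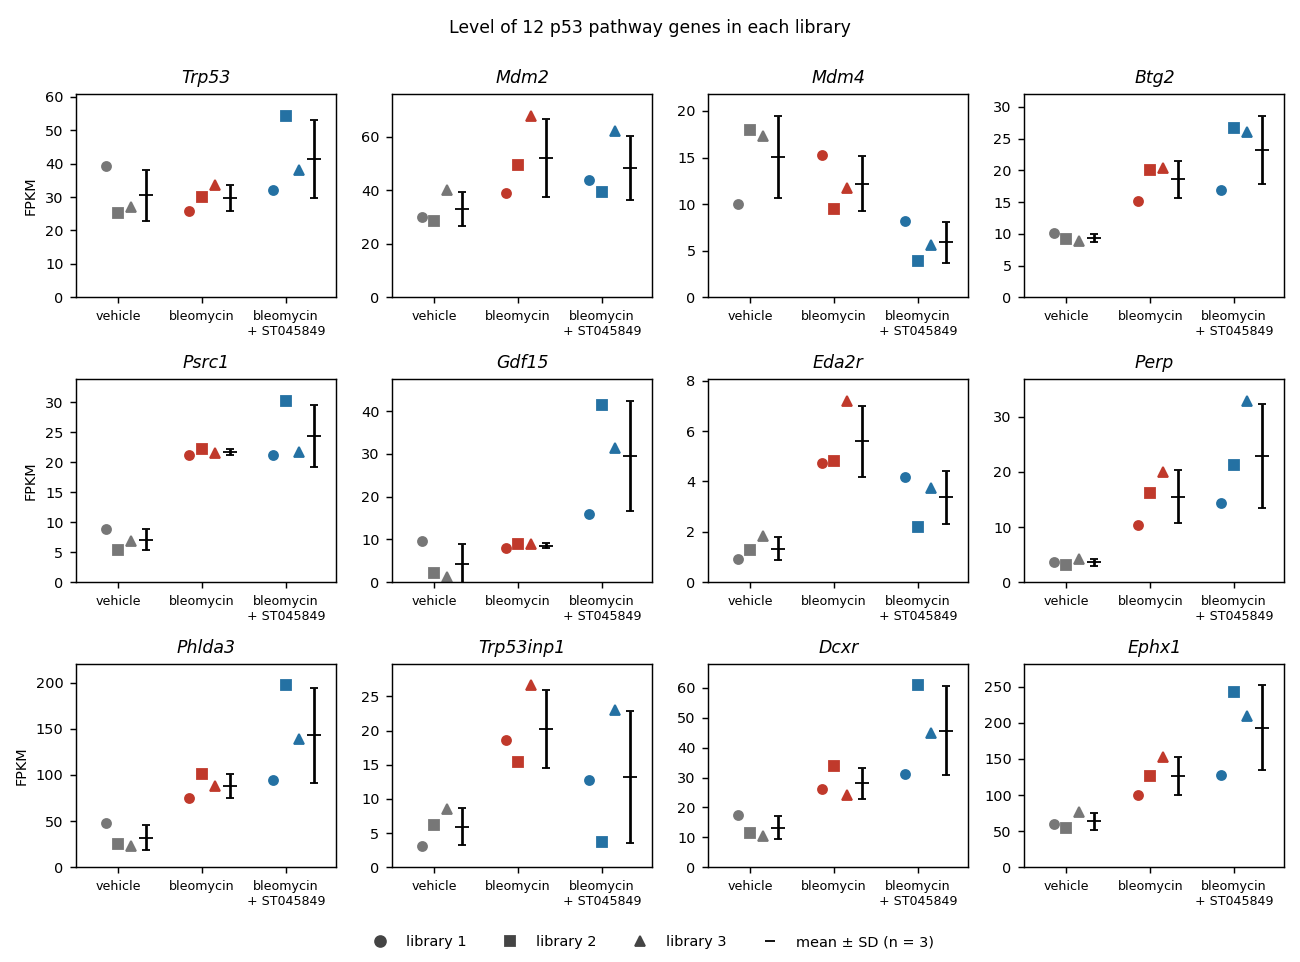
Level in FPKM (y axes from 0, linear) of 12 genes in each of the 9 libraries, by treatment group (x axes); symbols mark library numbers 1 to 3 and black bars give the mean ± SD (n = 3), cut at 0 for Gdf15 in vehicle. Perp, Psrc1, Eda2r and Phlda3 are higher in every bleomycin library than in any vehicle library, Trp53 overlaps in all 3 groups, and Mdm4 is lowest in the 3 libraries with ST045849.

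The regulators come first. Trp53 (chromosome 11, 69580359 to 69591873 in GRCm38) stood at 39.4, 25.1 and 27.1 FPKM in vehicle libraries 1, 2 and 3. Its level was 25.8, 30 and 33.6 FPKM with bleomycin and 32, 54.4 and 38 FPKM with bleomycin plus ST045849. The 3 groups overlapped. The change with bleomycin was -0.01 ± 0.25, with a 95% interval from -0.56 to 0.53 (adjusted p = 0.991), so a rise of over 0.53 log2 units lay outside the interval. With ST045849 against bleomycin it was 0.44 ± 0.25 (interval -0.11 to 0.98, adjusted p = 0.288).

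Mdm2, the ligase that marks p53 for degradation and itself a p53 target (chromosome 10, 117688875 to 117710758), stood at 30.1, 28.6 and 40.2 FPKM in vehicle libraries. Bleomycin libraries 1, 2 and 3 held 39.2, 49.6 and 68 FPKM, and those with ST045849 43.9, 39.5 and 62.1 FPKM. The lowest bleomycin library lay just under the highest vehicle library, so the groups overlapped. The difference of 0.63 ± 0.26 did not pass (adjusted p = 0.231, interval 0.06 to 1.2), nor did that with ST045849 against bleomycin, at -0.1 ± 0.26 (interval -0.66 to 0.47, adjusted p = 0.828).

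Mdm4, which binds p53 and blocks its activity without degrading it (chromosome 1, 132959484 to 133030561), went the other way. Vehicle libraries held 10, 18 and 17.3 FPKM, and bleomycin libraries 15.3, 9.47 and 11.7 FPKM. With ST045849 the values were 8.21, 3.92 and 5.57 FPKM, below each of the other 6 libraries. Bleomycin alone gave -0.27 ± 0.29 (adjusted p = 0.734). With both agents Mdm4 fell by 1.23 ± 0.29 from vehicle (adjusted p = 0.0261), and 1.74% of all genes fell in that comparison. It was no longer called when library 2 or 3 of vehicle or of ST045849 was dropped (adjusted p up to 0.121). Mdm4 has the longest exon sequence of the 32 genes, 14798 bases, and with the length trend of exons taken out of all 9 libraries it differed by -0.85 ± 0.18 from vehicle (adjusted p = 0.0205).

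Ppm1d encodes the phosphatase WIP1, which removes the activating phosphates from p53 and its kinases. It stood at 2.82, 2.36 and 2.99 FPKM in vehicle, 3.21, 3.93 and 5.63 FPKM in bleomycin and 3.85, 4.18 and 7.82 FPKM in ST045849 libraries. Both treated groups lay wholly above vehicle, and library 3 was highest in each. The differences from vehicle, 0.48 ± 0.26 and 0.7 ± 0.26, did not pass (adjusted p = 0.389 and 0.0943). None of the 4 regulators was called with bleomycin alone.

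Of the 7 genes listed under growth arrest, 2 rose with bleomycin and all 7 lay higher, against 4.2% and 62% of all genes. Psrc1 encodes a microtubule-associated protein of the mitotic spindle (chromosome 3, 108383839 to 108388231). It went from 8.92, 5.43 and 6.89 FPKM in vehicle to 21.3, 22.2 and 21.5 FPKM in bleomycin libraries, and stood at 21.2, 30.3 and 21.8 FPKM with ST045849. The 3 bleomycin libraries had a mean of 21.7 FPKM with an SD of 0.467 FPKM, and each lay far above every vehicle library. Psrc1 rose by 1.51 ± 0.21 (adjusted p = 0.00384), a call that dropping any 1 of the 9 libraries kept (adjusted p up to 0.0221). Btg2, an antiproliferative cofactor of mRNA deadenylation (chromosome 1, 134075170 to 134079120), went from 10.1, 9.22 and 8.84 FPKM to 15.2, 20.1 and 20.4 FPKM with bleomycin. With ST045849 it reached 16.9, 26.6 and 26 FPKM. Every treated library lay above every vehicle library. The rise of 0.91 ± 0.22 (adjusted p = 0.0371) was lost without any single vehicle or bleomycin library (up to 0.153).

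Ccng1, the cyclin G gene and the member with the highest level in this role, did not pass. It stood at 55.2, 56.7 and 90.2 FPKM in vehicle, 86.3, 86.9 and 140 FPKM in bleomycin and 98.3, 70 and 143 FPKM in ST045849 libraries. Library 3 was the highest of each group, and vehicle library 3 overlapped the treated libraries (0.62 ± 0.31 with bleomycin, adjusted p = 0.345). Zmat3, a zinc finger protein that binds RNA, stood at 5.72 ± 0.694 FPKM (SD, n = 3) with vehicle against 9.53 ± 0.433 FPKM with bleomycin, with no overlap. Its change of 0.65 ± 0.18 had an adjusted p of 0.071. The Polo-like kinase genes Plk2 (0.34 ± 0.18) and Plk3 (0.13 ± 0.23) did not pass either (adjusted p = 0.38 and 0.849), and the vehicle and bleomycin groups overlapped in both.

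Gdf15, a secreted stress factor of the TGF-beta family (chromosome 8, 70629393 to 70632456), varied widely among vehicle libraries. They held 9.71, 2.08 and 1.19 FPKM, so that vehicle library 1 lay above all 3 bleomycin libraries, at 7.93, 8.9 and 8.89 FPKM. With ST045849 the level was 15.9, 41.5 and 31.5 FPKM, above each of the other 6 libraries. The change with bleomycin was 1.2 ± 0.51 (adjusted p = 0.248). When vehicle library 1 was dropped Gdf15 was called, with a change of 1.88 (adjusted p = 0.0217).

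Genes of cell death held 3 of the 5 rises, which is 3 of 11 tested, where growth arrest had 2 of 7. Of the 12 genes of cell death 11 were tested. All 11 lay higher with bleomycin, against 62% of all genes, and in 9 the groups did not overlap, against 28%. Perp encodes a membrane protein of desmosomes that p53 induces in apoptosis (chromosome 10, 18845020 to 18857073). Of the 30 tested members it had the largest difference in log2(FPKM + 1) with bleomycin. It went from 3.58, 3.04 and 4.26 FPKM in vehicle to 10.4, 16.1 and 19.9 FPKM in bleomycin and 14.3, 21.3 and 32.9 FPKM in ST045849 libraries. Each of the 6 treated libraries lay above each vehicle library. Perp rose by 1.8 ± 0.31 (adjusted p = 0.00836), and the call was kept in every fit that left out 1 library (up to 0.0486).

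Eda2r, the receptor for ectodysplasin A2 (chromosome X, 97333840 to 97377216), went from 0.903, 1.27 and 1.82 FPKM to 4.75, 4.81 and 7.21 FPKM with bleomycin. Libraries with ST045849 held 4.18, 2.19 and 3.74 FPKM, below every bleomycin library and above every vehicle library. The rise with bleomycin was 1.5 ± 0.24 (adjusted p = 0.00673, up to 0.0379 when each library was left out). Phlda3, a small PH-domain protein that restrains AKT (chromosome 1, 135766119 to 135769136), went from 47.7, 25.4 and 23.1 FPKM to 75.3, 101 and 88.3 FPKM, and reached 94.2, 197 and 139 FPKM with ST045849. All 6 treated libraries lay above vehicle. Phlda3 rose by 1.5 ± 0.32 with bleomycin (adjusted p = 0.0265), a call that failed when vehicle library 2, vehicle library 3 or a bleomycin library was dropped (up to 0.119).

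The other death genes did not pass with bleomycin alone. Trp53inp1, a nuclear cofactor of p53 that also acts in autophagy, had a wide spread, with 3.08, 6.13 and 8.49 FPKM in vehicle libraries and 18.6, 15.4 and 26.6 FPKM after bleomycin. The groups lay apart, but 1.67 ± 0.51 gave an adjusted p of 0.0959. The death receptor genes Fas (0.96 ± 0.27) and Tnfrsf10b, the mouse TRAIL receptor (0.62 ± 0.2), had adjusted p of 0.071 and 0.112. Aen, an exonuclease that cuts DNA in apoptosis, changed by 0.89 ± 0.3 and Ei24, a membrane protein of the endoplasmic reticulum, by 0.84 ± 0.23 (adjusted p = 0.125 and 0.0596). Pidd1, the scaffold that activates caspase-2, stood at 1.05 ± 0.223 FPKM with vehicle against 1.98 ± 0.231 FPKM with bleomycin (0.54 ± 0.19, adjusted p = 0.141). In each of these 6 genes, which are among the 9 above, the bleomycin libraries lay wholly above vehicle.

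The mitochondrial death genes overlapped between the groups. Bax, which opens the outer mitochondrial membrane and had the highest mean level in this role (chromosome 7, 45461697 to 45466898), stood at 114, 46.4 and 60.8 FPKM in vehicle libraries and 72.6, 89.4 and 96 FPKM after bleomycin. Vehicle library 1 was higher than every bleomycin library, and the change was 0.32 ± 0.34 (interval -0.43 to 1.06, adjusted p = 0.736). Bbc3 encodes PUMA, a BH3-only protein that frees Bax, and changed by 0.2 ± 0.34 (interval -0.55 to 0.94, adjusted p = 0.849). Pmaip1, which encodes the BH3-only protein NOXA, averaged 0.246 ± 0.179 FPKM with vehicle and 0.741 ± 0.42 FPKM with bleomycin (SD, n = 3), too low to be tested.

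None of the 3 genes of DNA supply and repair rose or fell. Polk, a polymerase that copies past damaged bases, had the highest mean level, with 3.66, 4.48 and 6.43 FPKM in vehicle, 7.63, 5.36 and 9.53 FPKM in bleomycin and 5.07, 3.2 and 6.74 FPKM in ST045849 libraries. All 3 groups overlapped (0.54 ± 0.28 with bleomycin, adjusted p = 0.368). Rrm2b, the p53-induced subunit of ribonucleotide reductase, changed by 0.37 ± 0.28 (adjusted p = 0.59). Ddb2, which recognises ultraviolet damage, changed by -0.05 ± 0.17 (interval -0.42 to 0.32, adjusted p = 0.935). Its value is uncertain, since 23.8% of its exon sequence lies in Acp2 on the opposite strand, at 19.5 FPKM, and use of strand in the counting is not given.

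Of 5 genes that limit oxidative damage or detoxify, none was called with bleomycin alone, and all 5 lay higher, against 62% of all genes. Dcxr, a carbonyl reductase (chromosome 11, 120725399 to 120727281), went from 17.6, 11.5 and 10.5 FPKM in vehicle to 26.2, 34 and 24.2 FPKM in bleomycin libraries (1.05 ± 0.28, adjusted p = 0.0563). Ephx1, the microsomal epoxide hydrolase and the member with the highest level here (chromosome 1, 180976210 to 181020904), went from 59.6, 54.5 and 76.4 to 100, 126 and 153 FPKM (0.98 ± 0.28, adjusted p = 0.0722). In both genes the groups lay apart. Sesn2, a leucine sensor upstream of mTORC1 (chromosome 4, 132492032 to 132510501), held 19.1, 10.2 and 12.9 FPKM in vehicle libraries and 15.7, 21.1 and 23.5 FPKM after bleomycin, which overlapped (0.51 ± 0.27, adjusted p = 0.371). Its relative Sesn1 (0.12 ± 0.21) and Tigar, a phosphatase that diverts sugar from glycolysis (0.15 ± 0.2), did not pass (adjusted p = 0.858 and 0.791). Ano3, a membrane protein of the anoctamin family, was under the filter, at 0.0459, 0.0668 and 0.0705 FPKM in vehicle against 0.411, 0.392 and 0.839 FPKM in bleomycin libraries.

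**Figure D2:**
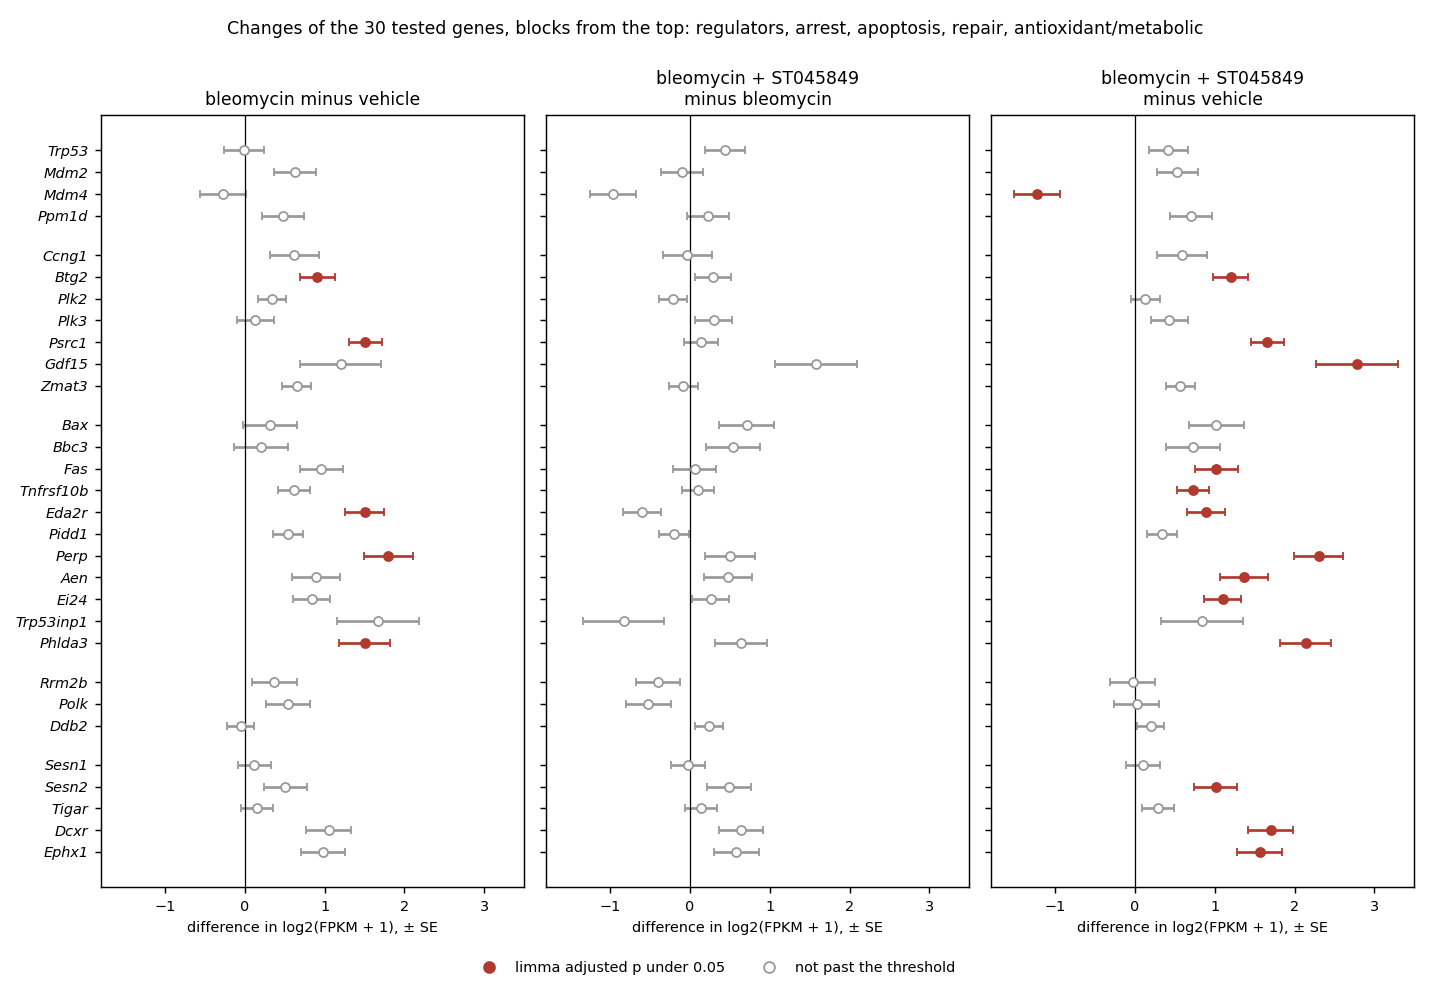
Difference in log2(FPKM + 1) ± SE from limma (x axes) for the 30 tested members (y axis, by role) in the 3 comparisons; filled red points have an adjusted p under 0.05. With bleomycin 5 points are filled, with ST045849 against bleomycin 0, and with both agents against vehicle 14, of which Mdm4 alone lies below 0.

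Bleomycin followed by ST045849 was set against bleomycin followed by DMSO, which compares cells with and without the compound after damage. The RNA values hold no measure of O-GlcNAcylation itself. In the fit of all 9 libraries no member was called, and 0% of all tested genes rose and 0% fell (limma, where 4 members and 2804 genes had an unadjusted p under 0.05). A total of 19 of the 30 lay higher, against 55.1% of all genes, and the median difference was 0.19 against 0.06. The libraries of Mdm4, Gdf15, Eda2r and Ddb2 did not overlap between these groups, 4 of 30, against 25.2% of all genes. In the fit of these 2 groups that pairs libraries by number, Gdf15, Bax, Phlda3 and Dcxr rose and Mdm4 fell. Over all genes 11.3% rose and 8% fell in that fit. The labels state no pairing, which was taken from correlations within these same values. The p-values of the paired fit may therefore be too small.

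Gdf15 had the largest difference, 1.58 ± 0.51 (adjusted p = 0.203). Its 3 pairs differed by 0.92, 2.1 and 1.71 log2 units, and the paired fit gave an adjusted p of 0.00812. Mdm4 differed by -0.96 ± 0.29 (adjusted p = 0.203), with -0.83, -1.09 and -0.95 in the pairs and a paired adjusted p of 0.0163. All 3 pairs differed in the same direction in both genes. Bax stood at 94.2, 175 and 168 FPKM with ST045849 and differed by 0.71 ± 0.34 (adjusted p = 0.231, and 0.0347 when paired). Phlda3 and Dcxr each differed by 0.64 (SE 0.32 and 0.28, adjusted p = 0.245 and 0.213, and 0.0466 and 0.0435 when paired). In all 3 of these genes pair 1 differed least, by 0.37, 0.32 and 0.24. Eda2r differed in the other direction, by -0.6 ± 0.24 (adjusted p = 0.204, and 0.0532 when paired).

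Exon length moved with these differences. Over the 30 members the rank correlation of the difference with exon length was -0.82, and over 12437 tested genes -0.6, with all values taken from the same 6 libraries. For each library a slope on exon length was taken from the deviations of log2(FPKM + 1) from each gene's mean over all 9 libraries. It is thus relative to the other libraries. Per doubling of exon length it was -0.072 to 0.101 in vehicle libraries and 0.038 to 0.097 in bleomycin libraries. In ST045849 libraries 1, 2 and 3 it was 0.019, -0.212 and -0.139. Of the genes called in the paired fit, the short Dcxr (1144 bases), Phlda3 (1559), Bax (1576) and Gdf15 (1852) lay higher with ST045849. The long Mdm4 lay lower. Some other members departed from this order, such as Zmat3 (11435 bases, -0.08), Fas (2062 bases, 0.06) and Aen (5801 bases, 0.48). When each library's length trend was taken out of the paired fit, only Gdf15 of the 30 members was called (1.21 ± 0.19, adjusted p = 0.0385), and 0.643% of all genes rose and 0.748% fell. Mdm4 then differed by -0.44 ± 0.15 (adjusted p = 0.125), Bax by 0.3 ± 0.15, Phlda3 by 0.23 ± 0.15 and Dcxr by 0.19 ± 0.15 (adjusted p = 0.241, 0.37 and 0.457).

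**Figure D3:**
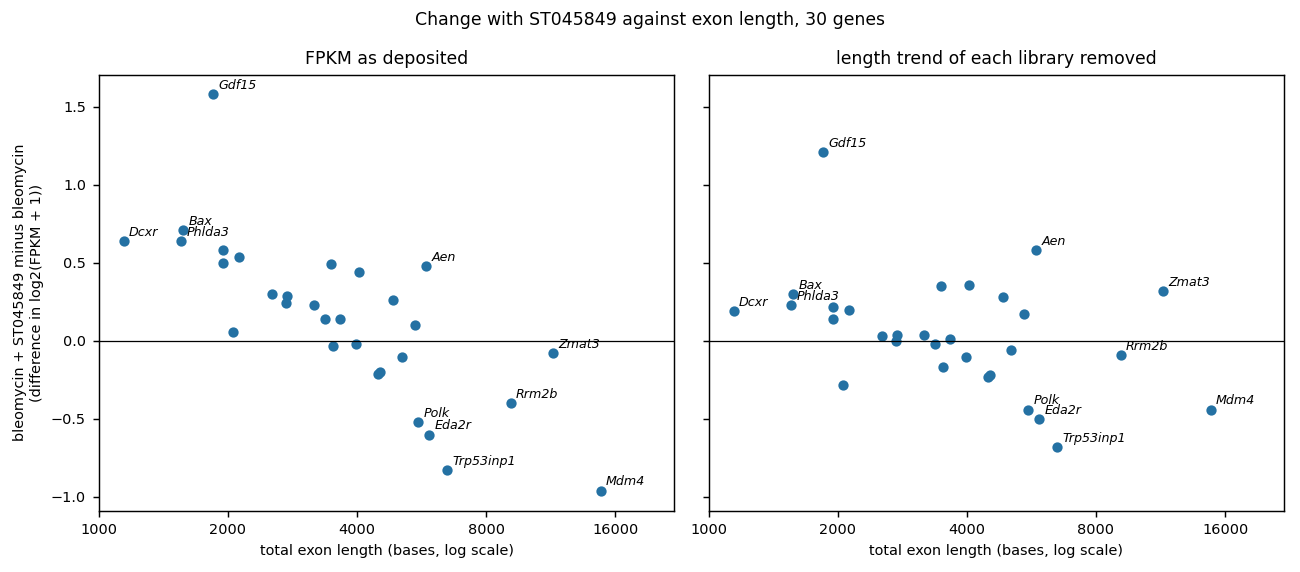
Difference between bleomycin plus ST045849 and bleomycin in log2(FPKM + 1) (y axis) against total exon length in bases (x axis, log scale) for the 30 tested members, as deposited (left) and after each library's length trend was taken out (right). The rank correlation is -0.82 on the left and -0.39 on the right, and Gdf15 is the highest point in both.

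The 3 libraries with ST045849 also differed from one another, though not always in the order of their slopes. Library 2, with the slope of -0.212, held the highest value of the group for 16 members, with a median exon length of 2740 bases, and the lowest value for 9 members, with a median of 5553 bases. Library 1 was lowest in 20 members. Library 3, with the slope of -0.139, was highest in 10 members, with a median of 4680 bases, and lowest only in Zmat3 (11435 bases). Trp53inp1, with 6475 exon bases, stood at 12.7, 3.76 and 23 FPKM in libraries 1, 2 and 3, so that library 2 fell within the vehicle range. Without ST045849 library 1 the comparison called 5 members, Gdf15, Aen, Dcxr and Ephx1 as higher and Mdm4 as lower, where 10.7% of all genes rose and 7.18% fell. The part of exon length in these differences between libraries was not tested.

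Cells given both agents were also set against vehicle. Here 13 members rose and 1, Mdm4, fell, where 8.11% of all tested genes rose and 1.74% fell. The median difference of the 30 was 0.73 against 0.19 over all genes, 28 lay higher against 65.2%, and in 16 the groups did not overlap, against 27.7%. This comparison shares its vehicle libraries with that of bleomycin alone and its ST045849 libraries with the one above. It takes in bleomycin and ST045849 together, so the effect of either agent cannot be told apart in it. Scaling the libraries by median of ratios moved the median of all genes from 0.19 to -0.01 in this comparison and from 0.1 to -0.05 with bleomycin alone. On that scale 9 members rose and Mdm4 fell, and 4 rose with bleomycin alone. Over all genes 486 rose and 403 fell on that scale, against 1009 and 216 as deposited, and with bleomycin alone 320 and 151 against 523 and 84. Leaving out vehicle library 2, vehicle library 3 or ST045849 library 3 left 6, 8 and 7 called members of the 14. Over all genes 286, 351 and 611 were called in those fits, against 1225.

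By role, 7 of 11 tested death genes, 3 of 7 arrest genes, 3 of 5 antioxidant genes, 0 of 3 repair genes and 0 of 4 regulators rose. Gdf15 led with 2.78 ± 0.51 (adjusted p = 0.00898), a call lost without vehicle library 2 (0.0512). Perp followed with 2.3 ± 0.31, Phlda3 with 2.14 ± 0.32 and Psrc1 with 1.66 ± 0.21 (adjusted p = 0.00227, 0.0041 and 0.00214). Dcxr rose to 31.1, 60.8 and 44.9 FPKM and Ephx1 to 128, 243 and 209 FPKM, wholly above vehicle. Their changes were 1.7 ± 0.28 and 1.56 ± 0.28 (adjusted p = 0.00563 and 0.00764), and that of Btg2 was 1.2 ± 0.22 (adjusted p = 0.00835). The calls of Perp, Phlda3, Psrc1, Dcxr, Ephx1 and Btg2 were kept in each of the 9 fits that left out 1 library.

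The other 6 rises each depended on single libraries. Aen (chromosome 7, 78895854 to 78911209) held 9.06, 6.82 and 8.92 FPKM in vehicle, 13.2, 17.7 and 17.7 FPKM in bleomycin and 13.4, 33.3 and 26.4 FPKM in ST045849 libraries. It rose by 1.37 ± 0.3 (adjusted p = 0.0177), lost without vehicle or ST045849 library 2 or 3 (up to 0.0872). Ei24 (chromosome 9, 36779159 to 36797393) held 13.6, 11 and 15.9 FPKM in vehicle, 19.4, 25.7 and 30.2 FPKM in bleomycin and 24.9, 31.4 and 33.9 FPKM in ST045849 libraries. Both genes lay wholly above vehicle in the treated cells. The rise of Ei24 was 1.1 ± 0.23 (adjusted p = 0.0146), lost without vehicle library 2 or ST045849 library 3 (up to 0.0802).

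Fas, the receptor for FAS ligand (chromosome 19, 34290666 to 34327772), held 9.37, 5.32 and 8.6 FPKM in vehicle, 14.7, 14.9 and 17.4 FPKM in bleomycin and 15.5, 11.8 and 23.8 FPKM in ST045849 libraries. Tnfrsf10b (chromosome 14, 69767472 to 69784411) held 12.6, 11.3 and 13.4 FPKM, then 15.5, 20.1 and 24.2 FPKM, then 19.1, 22.5 and 22 FPKM. For these 2 death receptors the treated groups overlapped each other and lay above vehicle. Against vehicle Fas rose by 1.02 ± 0.27, Tnfrsf10b by 0.73 ± 0.2 and Eda2r by 0.89 ± 0.24 (adjusted p = 0.0387, 0.0439 and 0.0422). Sesn2 reached 23, 37.3 and 26.6 FPKM and rose by 1.01 ± 0.27 (adjusted p = 0.0394). The call of Fas was lost without any bleomycin library, vehicle library 2 or 3 or ST045849 library 3 (up to 0.166). That of Sesn2 failed without library 2 or 3 of any group (up to 0.168). With the length trend of exons taken out of all 9 libraries, Fas (0.56 ± 0.24, adjusted p = 0.178), Tnfrsf10b (0.64 ± 0.18, adjusted p = 0.0627) and Sesn2 (0.72 ± 0.22, adjusted p = 0.0809) were no longer called. The other 10 rises and Mdm4 passed there, and Zmat3 was called in addition (0.83 ± 0.15, adjusted p = 0.0125). Tnfrsf10b kept its call only without bleomycin library 1 or ST045849 library 1 (otherwise up to 0.17), and Eda2r only without bleomycin library 3 or ST045849 library 2 (otherwise up to 0.145).

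**Figure D4:**
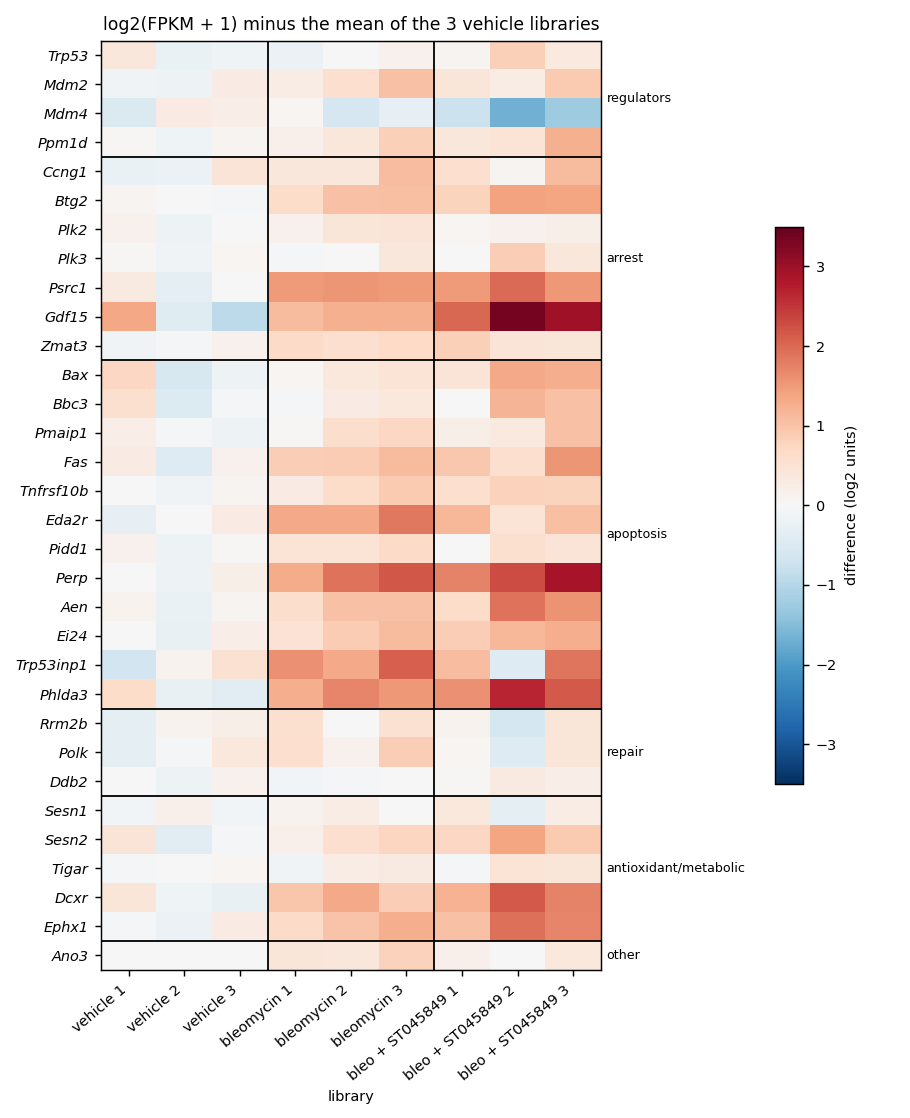
Difference of log2(FPKM + 1) from the mean of the 3 vehicle libraries (colour, log2 units, red higher) for all 32 genes (rows, by role) in the 9 libraries (columns). Psrc1, Perp and Phlda3 are red in all 6 treated libraries, Mdm4 is blue in the 3 libraries with ST045849, and Gdf15 reaches the darkest red there.

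Library by library, bleomycin libraries 1, 2 and 3 had a median difference of the 30 members from the vehicle mean of 0.49, 0.59 and 0.87. Those with ST045849 had 0.58, 0.7 and 1.03, and vehicle libraries -0.17 to 0.1. Over all tested genes the same median was 0.07 to 0.17, 0.13 to 0.26 and -0.08 to 0.06. Library 3 stood highest in both treated groups, for the members and for all genes. Members above the vehicle mean numbered 25, 27 and 28 of 30 in the bleomycin and 28, 25 and 29 in the ST045849 libraries.

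Other genes of the pathway were read from 2 lists. Of 30 kinases, modifiers and cofactors that act on p53, 29 were tested, and none rose or fell with bleomycin, with a median of 0.08 against 0.1 over all genes. Against vehicle 1 fell with both agents, the checkpoint kinase gene Atr (3.42 ± 0.272 to 1.78 ± 0.111 FPKM, fell by 0.67 ± 0.17, adjusted p = 0.0374). Atr has 23629 exon bases, and with the length trend taken out it differed by -0.08 ± 0.24 (adjusted p = 0.864), so that none of the 29 was called. For ST045849 against bleomycin none was called in the fit of all 9 libraries. The paired fit called 2 as higher and 5 as lower, where 11.3% of all genes rose and 8% fell, and 0 with the length trend also removed. Among them were Rchy1, a ubiquitin ligase that acts on p53 (1.28 ± 0.24, paired adjusted p = 0.0153), and Hipk2, a kinase of p53 (-1.01 ± 0.23, paired adjusted p = 0.0212).

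Of 40 further p53 targets 38 were tested. With bleomycin 7 rose and none fell, against 4.2% and 0.675% of all genes, and 32 lay higher against 62%, with a median of 0.37 against 0.1. The count was 4 both with the length trend removed and with median-of-ratios scaling. Over all genes 383 and 320 rose there, against 523 as deposited. The 2 with the smallest adjusted p were Ddit4l, which restrains mTORC1 (5.01 ± 0.813 to 11.5 ± 1.25 FPKM, 1.06 ± 0.19, adjusted p = 0.0112), and Rprm, an inhibitor of entry into mitosis (0.99 ± 0.262 to 3.23 ± 0.475 FPKM, 1.09 ± 0.21, adjusted p = 0.0146). With both agents 13 rose against vehicle, where 8.11% of all genes did, with a median of 0.6 against 0.19. That count was 7 with the length trend removed and 8 with median-of-ratios scaling, where 464 and 486 of all genes rose, against 1009 as deposited. Ddit4l again had the smallest adjusted p (1.54 ± 0.19, 0.00159), followed by Ak1, an adenylate kinase (1.34 ± 0.21, 0.00486). For ST045849 against bleomycin none of the 38 was called in the fit of all 9 libraries. The paired fit called 4 as higher and 1 as lower, where 11.3% of all genes rose and 8% fell. With the length trend also removed it called 1 as higher, where 0.643% of all genes rose and 0.748% fell. That gene was Nupr1, a stress-induced chromatin protein (1.7 ± 0.27 paired, adjusted p = 0.0112, and 1.43 ± 0.24 with the trend removed, adjusted p = 0.0452).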

How the data were processed

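RNA from 9 libraries in 3 groups of 3 was sequenced after a stranded mRNA preparation, per the labels' protocols. Trimmomatic and STAR with GRCm38 are named in the submitters' processing notes. The authors deposited FPKM values per gene, which are scaled by exon length and library size, so absolute depth is unknown. Which program, annotation and strand setting produced them is not given in the sources used here.

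The 32 members were matched by deposited symbol. Genes reaching 1 FPKM in 3 of the 9 libraries or more were kept (12441). A single limma fit (3.58.1, R 4.3.3) took log2(FPKM + 1) from the 9 libraries, with variances trended on the mean. P-values were adjusted by Benjamini-Hochberg over the 12441 genes, with 0.05 as the threshold for a call. The members, roles and lists were chosen with earlier results of these data known.

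Values per library are given for the 4 regulators, for every called member and for the member with the highest mean level in each role. Up to 2 called genes per direction and comparison are named from each other list. Exon lengths and coordinates come from GENCODE vM21, and promoter sequences from RefSeq on GRCm38.p6. To see whether replicate numbers pair libraries, deviations from group means were correlated. Equal numbers gave 0.466, 0.481 and 0.5 between bleomycin and bleomycin plus ST045849, and from -0.519 to 0.546 between the other groups. The comparison of those 2 treated groups is therefore also given paired, in a fit of these groups with the replicate number as a block. The pairing comes from the same data, since the labels state none, so p-values of the paired fit may be too small.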

Additional observations from a re-analysis of the deposited data

How the results depend on the processing

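The 5 members called with bleomycin became 12 in a fit of those 2 groups alone, 3 with no filter on low values, 9 with the replicate number as a block in all 9 libraries, 7 with the block in the 2 groups alone and 9 with the block and the length trend of exons removed there. Leaving out 1 library gave 3 to 10. Over all tested genes the 607 called became 1024, 483 (of 30298 with no filter), 733, 800 and 1047 in the same order. Leaving out 1 library gave 184 to 829 of all genes. The 0 called for ST045849 against bleomycin became 5 in the paired fit with the replicate block and 1 with the length trend also removed, and 0 to 5 when 1 library was left out. Over all tested genes the 0 called became 2403 and 173 in those fits, and 0 to 2225 when 1 library was left out. The 14 called with both agents against vehicle became 9 in the 2 groups alone, 13 with the block in all 9 libraries, 2 with it in the 2 groups alone, 4 with the block and the length trend removed, and 7 with no filter. Leaving out 1 library gave 6 to 16. Over all tested genes the 1225 called became 621, 1386, 199, 241 and 651 in the same order, and 286 to 3060 when 1 library was left out. The cause of these shifts was not tested. Between vehicle and a treated group the correlations at equal replicate numbers differed in sign (from -0.071 to 0.546 with bleomycin and from -0.519 to 0.424 with both agents). Only library 3 correlated best with its own number there. With 3 libraries per group such correlations cannot decide whether vehicle and treated libraries of equal number share a source.

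Of the differences of single genes under the alternatives, 1345 kept direction and side of the threshold, 46 passed it newly, 94 no longer passed and 45 changed sign. None of the 45 had been called in its own comparison in the fit of all 9 libraries, though Psrc1, Fas and Tnfrsf10b were called in others. With the length trend removed, in all 9 libraries and in the paired fit alike, Sesn1 differed by -0.02 with bleomycin. Against bleomycin ST045849 then gave -0.02 for Psrc1, 0.32 for Zmat3 and -0.28 for Fas. Against vehicle it gave -0.04 for Plk2, 0.12 for Rrm2b, -0.06 for Polk, -0.18 for Ddb2 and -0.12 for Sesn1. Median-of-ratios scaling gave -0.04 for Sesn1 with bleomycin, and with both agents -0.10 for Plk2, -0.18 for Polk and -0.12 for Sesn1. Leaving out 1 library moved the bleomycin change of Trp53 from -0.14 to 0.18, Plk3 from -0.01 to 0.21, Bbc3 from -0.04 to 0.48 and Ddb2 from -0.13 to 0.03. For ST045849 against bleomycin the ranges were -0.28 to 0.11 for Mdm2, -0.04 to 0.41 for Ppm1d, -0.29 to 0.22 for Ccng1, -0.01 to 0.23 for Psrc1, -0.19 to 0.28 for Fas, -0.06 to 0.25 for Tnfrsf10b and -0.15 to 0.19 for Sesn1. Against vehicle they were -0.26 to 0.27 for Rrm2b, -0.19 to 0.26 for Polk and -0.04 to 0.31 for Sesn1. Depth is unknown, and the low values of Pmaip1 and Ano3 could be tested only with no filter, where neither was called with bleomycin (0.46 ± 0.26 and 0.53 ± 0.12, limma adjusted p = 0.539 and 0.0869).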
